A study of Mus musculus with 6 samples.

Results

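The early response genes described here are 10 genes that cells switch on within minutes of a stimulus: Egr1, Egr2 and Egr3, Nr4a1, Nr4a2 and Nr4a3, Dusp1 and Dusp2, Ier2 and Zfp36. They were taken by symbol from a table of 26332 genes, and all 10 were found and passed the filter on low counts that left 13652 genes for testing. The counts are from RNA-seq of natural killer (NK) cells, cytotoxic lymphocytes of the innate immune system, sorted from the thymus. The mice were C57BL/6, 2 with a knockout (KO) of Tcf7, which encodes the transcription factor TCF-1, and 4 wild type (WT). Each library came from 1 mouse, so p-values measure the spread between individual mice. KO 1, WT 1 and WT 3 were labelled male, and KO 2, WT 2 and WT 4 female. Age, treatment and the design of the knockout allele are not given in the labels. The sort took NK1.1+ NKp46+ cells that were negative for CD3, TCRbeta, CD8 and the CD1d tetramer.

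Early response genes need no new protein for their induction. Receptors that activate MAP kinases, calcium or cyclic AMP act on transcription factors already in place, such as SRF, its partners of the ELK family, CREB and NFAT, and the new transcripts are short-lived. EGR proteins are zinc finger transcription factors, NR4A proteins are nuclear receptors with no known natural ligand, and DUSP proteins are phosphatases that switch MAP kinases off again. Zfp36 encodes tristetraprolin, which binds AU-rich elements in the 3′ ends of mRNAs and speeds their decay. In lymphocytes the group is known as a readout of recent receptor signalling, and it is also known to be induced by the handling of tissue.

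The promoters of the members differ in the sites that such factors read, and they are shown for the members with matches. For 7 members (Egr2, the 3 Nr4a genes, Dusp1, Dusp2 and Zfp36) the 250 bases before an annotated RefSeq start were searched on GRCm38.p6, with 5 starts for Egr2 and 1 for each of the others. The promoters of Egr1, Egr3 and Ier2 are not reported here. The Nr4a1 start lies inside the longest annotated span of the gene. Sequences run 5′ to 3′ on the gene's own strand and end at the base before the start, and the last 120 bases are given for Zfp36 and Egr2. Capitals mark TGACG on either strand, the short form of the cyclic AMP response element, and the CArG box, the site of SRF. Where TGACGTCA occurs, the TGACG matches on the 2 strands overlap.
Nr4a1, chr15:101266596-101266845, plus strand: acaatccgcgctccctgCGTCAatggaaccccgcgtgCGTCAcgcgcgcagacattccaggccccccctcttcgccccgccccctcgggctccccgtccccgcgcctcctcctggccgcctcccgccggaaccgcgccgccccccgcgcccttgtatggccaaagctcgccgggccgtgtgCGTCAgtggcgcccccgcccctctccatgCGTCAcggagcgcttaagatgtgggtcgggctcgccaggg
Nr4a2, chr2:57124004-57124253, minus strand: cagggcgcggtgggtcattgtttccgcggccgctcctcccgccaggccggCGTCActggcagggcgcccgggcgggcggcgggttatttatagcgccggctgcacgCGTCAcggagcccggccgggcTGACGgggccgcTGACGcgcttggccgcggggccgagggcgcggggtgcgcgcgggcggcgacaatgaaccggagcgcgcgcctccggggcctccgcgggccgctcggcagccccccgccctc
Nr4a3, chr4:48045055-48045304, plus strand: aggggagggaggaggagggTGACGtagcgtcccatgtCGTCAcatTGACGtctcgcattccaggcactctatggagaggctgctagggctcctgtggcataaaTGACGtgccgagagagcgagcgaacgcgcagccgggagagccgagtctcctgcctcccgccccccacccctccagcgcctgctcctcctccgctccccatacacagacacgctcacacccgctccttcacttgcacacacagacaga
Dusp1, chr17:26508473-26508722, minus strand: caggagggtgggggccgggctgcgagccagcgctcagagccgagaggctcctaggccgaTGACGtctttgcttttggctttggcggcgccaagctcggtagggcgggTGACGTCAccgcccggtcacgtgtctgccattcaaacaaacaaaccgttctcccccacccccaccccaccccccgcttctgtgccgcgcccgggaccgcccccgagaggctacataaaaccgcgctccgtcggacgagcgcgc
Zfp36, chr7:28379229-28379348, minus strand: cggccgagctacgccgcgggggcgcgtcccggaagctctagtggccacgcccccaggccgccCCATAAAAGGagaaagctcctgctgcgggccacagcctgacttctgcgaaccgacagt
Egr2, chr10:67537749-67537868, plus strand: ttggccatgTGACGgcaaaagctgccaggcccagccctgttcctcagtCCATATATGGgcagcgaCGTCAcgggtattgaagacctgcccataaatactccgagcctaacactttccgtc

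The Nr4a1, Nr4a2 and Nr4a3 windows each held 4 matches to TGACG, and Dusp1 held 3, a pair of them forming the full TGACGTCA at positions -143 to -136. Of 32851 RefSeq windows of 250 bases, 17.8% held at least 1 such match, 0.688% held 3 or more and 1.55% held TGACGTCA. CArG boxes, present in 1.47% of windows, were found before Zfp36 (positions -58 to -49) and before Egr2, where 4 of the 5 annotated starts had one. Some of these Egr2 windows overlap and share the same box, CCATATATGG, while another start had CCTTTTTTGG. GCGGGGGCG, a site read by EGR proteins, was searched on both strands as well and lay before Dusp2, Zfp36 and Nr4a1, against 2.57% of windows. A match is a run of letters and no evidence that a factor was bound.

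AU-rich sites were counted in the 3′ ends of the mRNAs, with 1 GENCODE M21 transcript per gene. TATTTAT, the core of the site that tristetraprolin binds, was found in 5 of 10 members (Nr4a2, Nr4a3, Dusp1, Dusp2 and Zfp36), against 27.1% of 12057 tested genes. The shorter ATTTA was found in 9 of 10, all but Ier2, against 65.6%. Zfp36 and Dusp1 held the most TATTTAT sites, 3 each, and these are shown beside the site of Nr4a2 as DNA letters with the core in capitals. Positions count from the base after the stop codon.
Zfp36, first base of the site at position 575: tgggcccttTATTTATgacgacttt
Zfp36, first base of the site at position 590: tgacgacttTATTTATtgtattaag
Zfp36, first base of the site at position 615: attttatagTATTTATatatattgg
Dusp1, first base of the site at position 104: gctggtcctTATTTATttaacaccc
Dusp1, first base of the site at position 393: ttttaccttTATTTATttttgtgta
Dusp1, first base of the site at position 589: atgtttgttTATTTATgatctgaag
Nr4a2, first base of the site at position 594: ttttgtgccTATTTATgaataaata

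The genes themselves were short. The median span in the RefSeq annotation was 4524 bases for the 10 members and 20831 bases for the tested genes. A lncRNA gene, Gm32255, overlaps Egr2, and LOC105244150 overlaps Nr4a2. Neither has a row in the count table, and because the library kit does not mark strand, reads from them cannot be told apart from those of Egr2 and Nr4a2.

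Library totals ranged from 16418910 to 31155303 counts, and 3 counts, the level taken as a floor, corresponded to 0.0963 to 0.183 CPM. Values are given as CPM, the counts scaled to library size with edgeR's TMM factors, and fold changes were tested by edgeR's quasi-likelihood test. A gene was called at a Benjamini-Hochberg adjusted p under 0.05 over the 13652 genes. Tcf7 itself had 268 CPM in KO 1 and 452 CPM in KO 2, against 811 to 947 CPM in WT libraries (log2 fold change -1.35, SE 0.17, adjusted p = 0.00294). All 12 NK marker genes listed, among them Ncr1, Klrb1c and Eomes, had counts in every library, with sums of 15200 and 13300 CPM in KO 1 and KO 2 and 15500 to 16300 CPM in WT. Of these, 3 were called lower in KO, against 5.58% of all tested genes, and 9 were not called. The log2 fold change was below 0 for 11 of the 12, against 48.3% of all tested genes. Gzma was the exception, at 0.47. Both KO libraries lay below all WT libraries for 6 of the 12, against 18.8% of all tested genes. Eomes had 295 and 140 CPM in KO 1 and KO 2, against 800 to 930 CPM in WT, and Tyrobp and Klrb1c fell by 0.67 and 0.48 on the log2 scale. Over all genes, 1110 were higher and 762 lower in KO at an adjusted p under 0.05, or 1336 and 523 when counts were scaled by library size alone.

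Most of the early response genes had their lowest levels in the KO libraries, WT libraries differed widely from each other, and Zfp36 was the only member called. All 10 fitted log2 fold changes (KO minus WT) were below 0, as were 48.3% of all tested genes, although that of Egr3 was 0.04 with library-size scaling. The median was -1 over the members and 0.02 over all tested genes. At an adjusted p under 0.05, 1 of 10 members was lower, against 5.58% of all tested genes, and none was higher, against 8.13%. At an unadjusted p under 0.05 it was 5 of 10 (Egr1, Dusp1, Dusp2, Ier2 and Zfp36), all lower, against 29.3% of all tested genes in either direction and 13.2% lower. Both KO libraries lay below all 4 WT libraries for 7 of 10 members, against 18.8% of all tested genes. Egr2, Egr3 and Nr4a3 were the exceptions. No member had both KO libraries above all WT libraries, against 20.5% of all tested genes. Ribosomal protein genes took 1.36% and 1.31% of counts in KO 1 and KO 2, against 1.66% to 1.91% in WT, and mitochondrial genes took 1.68% and 1.97%, against 1.97% to 2.73%. WT 4 had the highest of both shares and the most genes detected, 15861, and the part of library quality in these levels was not tested. In bulk libraries, fewer cells that express a gene and less RNA per cell cannot be told apart.

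**Figure D1:**
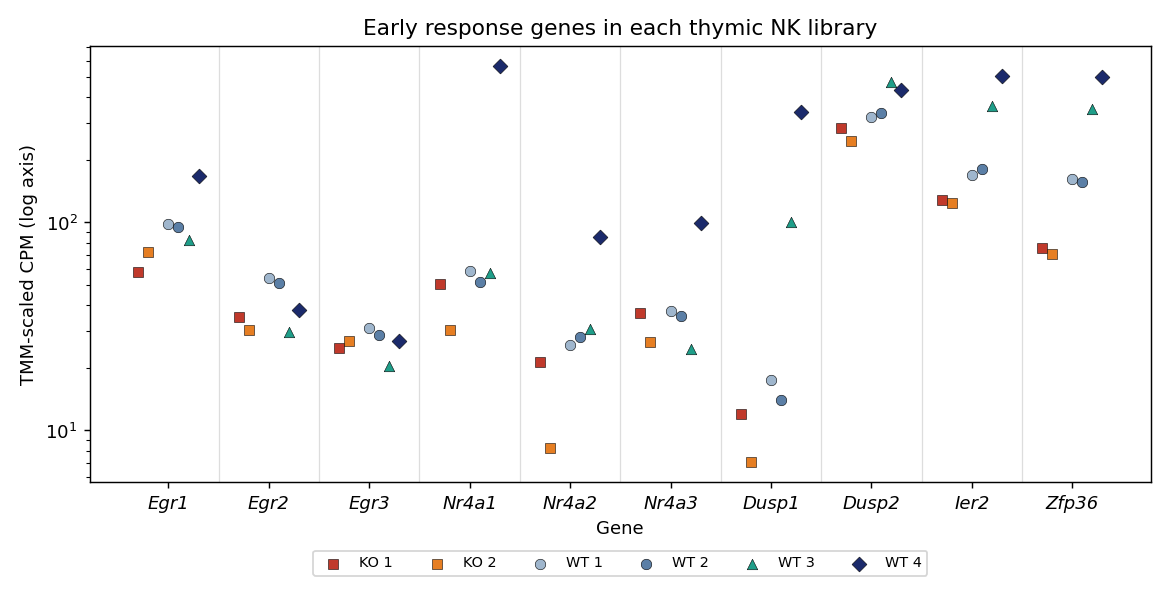
TMM-scaled CPM of the 10 genes on a log axis, 1 point per library, with KO libraries left of WT libraries for each gene. WT 4 stands above every other library for 7 genes and reaches 567 CPM for Nr4a1, while the KO points lie at or near the bottom except for Egr2, Egr3 and Nr4a3.

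Zfp36 (chr7:28376784-28379228, GRCm38), the mRNA decay factor gene, had 75.5 and 70.8 CPM in KO 1 and KO 2, against 162, 157, 350 and 498 CPM in WT 1 to WT 4. The groups did not overlap, and even the lowest WT library lay above both KO libraries. The gene fell in KO, with means of 73.1 ± 3.28 CPM (SD, n = 2) and 292 ± 164 CPM (SD, n = 4), a difference of -1.98 on the log2 scale (SE 0.51) and an adjusted p of 0.0406 by edgeR's quasi-likelihood test. Without WT 3 and WT 4 the log2 fold change was -1.12 and still called (SE 0.135, adjusted p = 0.00194). Those are the WT libraries where Zfp36 was highest, so their removal narrowed the WT spread and that call is no independent support. Zfp36 no longer passed when WT 3 (0.117), KO 1 (0.144) or KO 2 (0.189) was left out, with the robust option (0.189) and with limma voom and sample weights (0.0892), within a range of 0.00054 to 0.189 over 19 alternatives.

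Ier2, a gene for a nuclear protein of the early growth factor response, had a like order of libraries. It had 129 and 124 CPM in KO 1 and KO 2, against 170, 180, 364 and 507 CPM in WT 1 to WT 4. No KO value reached a WT value, and WT 3 and WT 4 were again the high ones. Ier2 differed by -1.25 on the log2 scale (SE 0.45, adjusted p = 0.111). The difference was -0.46 without WT 3 and WT 4 together (adjusted p = 0.0589), while without WT 2 it passed the threshold (-1.46, adjusted p = 0.0476).

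The phosphatase genes differed from each other in spread. Dusp1 (chr17:26505591-26508472), whose product removes phosphate from p38 and JNK in the nucleus, had 11.9 and 7.02 CPM in KO 1 and KO 2, against 17.6, 14.04, 101 and 341 CPM in WT 1 to WT 4. WT 4 was 24.3-fold above WT 2, a wider gap than the one between KO and the lowest WT library. The log2 fold change of -3.36 (SE 1.40) did not pass (adjusted p = 0.160). It was -1.73 without WT 4 and -0.78 without WT 3 and WT 4 together (adjusted p = 0.155 and 0.131). Dusp1 was called without an expression filter (-3.37, adjusted p = 0.0276). It was also called against WT 3 and WT 4 alone (-4.34, adjusted p = 0.00473). Those are the WT libraries where Dusp1 was highest, so that call is no independent support. Dusp2, a phosphatase gene of activated lymphocytes also known as PAC-1, had 284 and 247 CPM in KO 1 and KO 2. Its WT 1 to WT 4 values were 320, 335, 472 and 432 CPM, a range of 1.47-fold that stayed above both KO values. For Dusp2 the log2 fold change was -0.56 (SE 0.18, adjusted p = 0.0796). Without WT 1 it was -0.68 and passed (adjusted p = 0.0431). WT 1 was the WT library where Dusp2 was lowest, so that pass is no independent support. Without WT 3 and WT 4 together the log2 fold change was -0.31 (adjusted p = 0.177).

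The NR4A genes were set apart by WT 4. Nr4a1 (chr15:101253902-101274795), which encodes Nur77 and is widely used as a reporter of antigen receptor signalling, had 50.5 and 30.4 CPM in KO 1 and KO 2. Its WT values were 58.7, 51.5, 57.3 and 567 CPM in WT 1 to WT 4. WT 1, WT 2 and WT 3 lay within a narrow band just above KO 1, and WT 4 was 9.66-fold above WT 1. The log2 fold change of -1.50 (SE 1.06, adjusted p = 0.390) was -0.44 without WT 4 (SE 0.15, adjusted p = 0.105). It was -3.35 without KO 1 and -0.21 without KO 2 (adjusted p = 0.185 and 0.926).

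Nr4a2 had 21.3 and 8.24 CPM in KO 1 and KO 2, against 25.6, 28.1, 30.8 and 85.2 CPM in WT 1 to WT 4. The KO libraries differed 2.58-fold from each other, the widest gap between them among the 10 genes. Nr4a2 differed by -1.44 on the log2 scale (SE 0.64, adjusted p = 0.181). This was -0.96 without WT 4 (adjusted p = 0.0765), -2.78 without KO 1 and -0.41 without KO 2 (adjusted p = 0.0526 and 0.684). Nr4a3 had 36.7 and 26.6 CPM in KO 1 and KO 2, against 37.4, 35.6, 24.7 and 99.7 CPM in WT 1 to WT 4. Here WT 3 was the lowest library of all, so the groups overlapped. The log2 fold change of -0.49 (SE 0.49, adjusted p = 0.553) was -0.04 without WT 4, -1.35 without KO 1 and 0.23 without KO 2 (adjusted p 0.236 to 0.935).

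Among the EGR genes, Egr1 was the one with a gap between KO and WT libraries. Egr1, the founding member, had 58.0 and 72.3 CPM in KO 1 and KO 2, against 98.7, 94.6, 81.9 and 167 CPM in WT 1 to WT 4. All WT values lay above both KO values, the nearest being WT 3. Egr1 differed by -0.75 on the log2 scale (SE 0.23, adjusted p = 0.0697). Without WT 4 it was -0.53, smaller but called (SE 0.14, adjusted p = 0.0399). Egr1 was highest in WT 4, so that call is no independent support. Without WT 2 the log2 fold change was -0.88 (adjusted p = 0.0238).

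Egr2 and Egr3, known in T cells for restraining activation, ran the other way across WT libraries. Egr2 had 35.1 and 30.5 CPM in KO 1 and KO 2, against 54.3, 51.3, 29.8 and 37.8 CPM in WT 1 to WT 4. WT 3 lay below both KO libraries, so the groups overlapped, and Egr2 differed by -0.41 on the log2 scale (SE 0.25, adjusted p = 0.326). It was -0.21 without WT 1 and -0.28 without WT 2 (adjusted p = 0.649 and 0.530). Against WT 1 and WT 2 alone it was -0.69 and passed (SE 0.17, adjusted p = 0.0357). Those are the WT libraries where Egr2 was highest, so that pass is no independent support. Egr3 had 25.0 and 27.0 CPM in KO 1 and KO 2, against 31.0, 28.9, 20.4 and 26.9 CPM in WT 1 to WT 4. The KO values sat inside the WT range. Egr3 differed by -0.04 on the log2 scale (SE 0.18, adjusted p = 0.903), or by 0.10 without WT 1.

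**Figure D2:**
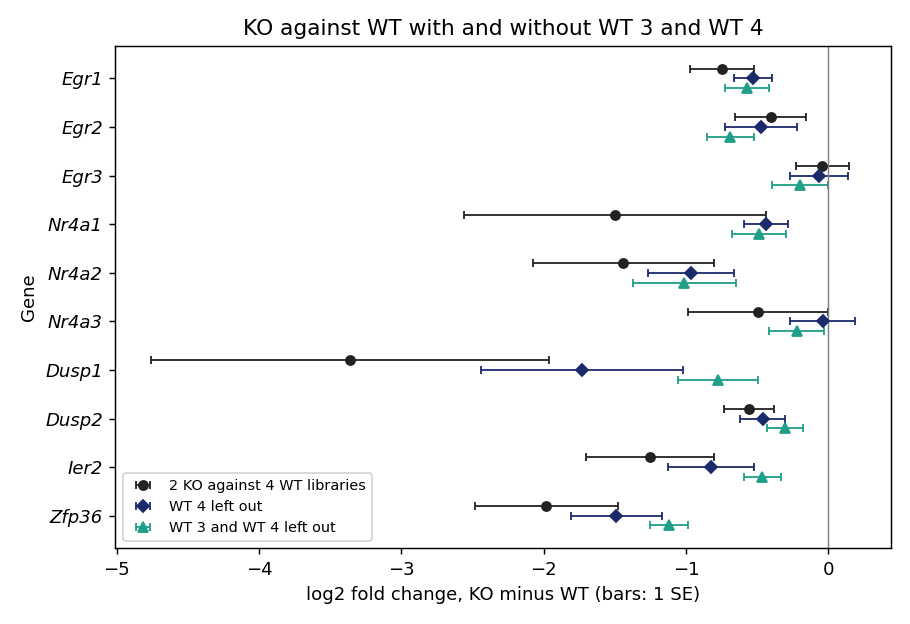
Fitted log2 fold change, KO minus WT, with bars of 1 SE, for all 6 libraries, without WT 4, and without WT 3 and WT 4. Dusp1 moves from -3.36 to -1.73 and -0.78 over these fits, and Zfp36 from -1.98 to -1.49 and -1.12, while Egr2 moves away from 0.

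The spread among WT libraries was wide for most of these genes. The SD of log2 CPM over the 4 WT libraries had a median of 0.79 over the members, against 0.19 over all tested genes. Dusp1 (SD 2.18) and Nr4a1 (1.67) stood at the 99.7th and 98.7th percentile of all tested genes. Nr4a3, Zfp36, Nr4a2 and Ier2 had SDs of 0.86, 0.83, 0.81 and 0.78, at the 90.5th, 89.8th, 89.4th and 88.9th percentile. Egr3 (0.26) and Dusp2 (0.27) had the smallest, at the 64.7th and 65.9th percentile. The highest WT library was at least 2-fold above the lowest for 7 of 10 members, against 22.3% of all tested genes.

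**Figure D3:**
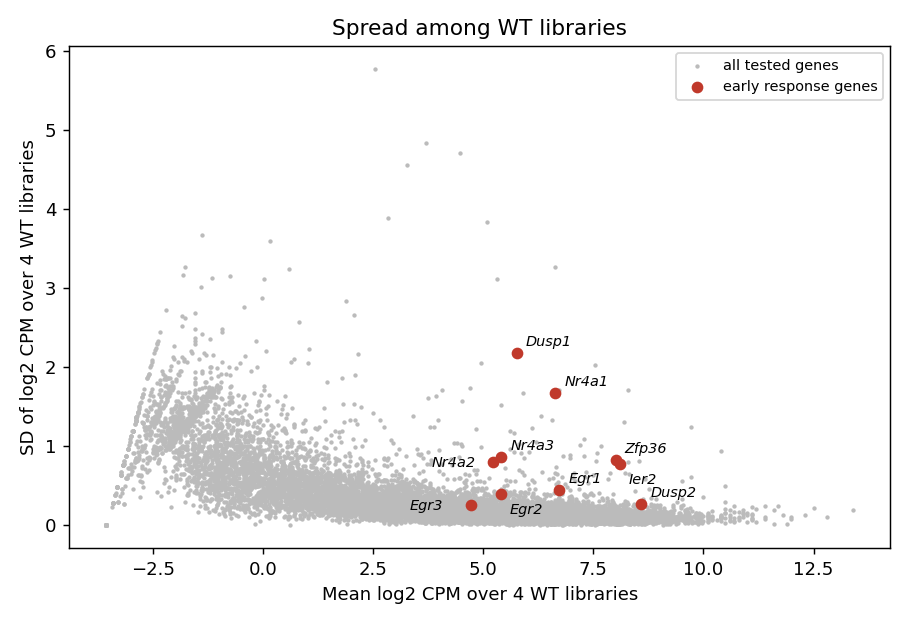
SD of log2 CPM over the 4 WT libraries against their mean log2 CPM, for 13652 tested genes in grey and the early response genes in red. Dusp1 at 2.18 and Nr4a1 at 1.67 stand highest of the members, and Egr3 and Dusp2 lie near the bulk of genes.

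The order of the WT libraries differed between members. WT 3 and WT 4 were both above WT 1 and WT 2 for 5 members (Dusp1, Dusp2, Ier2, Zfp36 and Nr4a2), against 20.6% of all tested genes. For Nr4a2 the margin of WT 3 was small, 1.20-fold over WT 1. For Nr4a1, Nr4a3 and Egr1, WT 4 alone was high, with 9.66-fold, 2.66-fold and 1.69-fold of WT 1, while WT 3 had 0.98, 0.66 and 0.83 of it. Egr2 and Egr3 had WT 3 and WT 4 both below WT 1 and WT 2, an order shared by 20% of all tested genes. WT 4 was the highest WT library for 7 members, against 30.7% of all tested genes. WT 1 and WT 2 had close values, with ratios of WT 2 to WT 1 between 0.80 and 1.10.

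**Figure D4:**
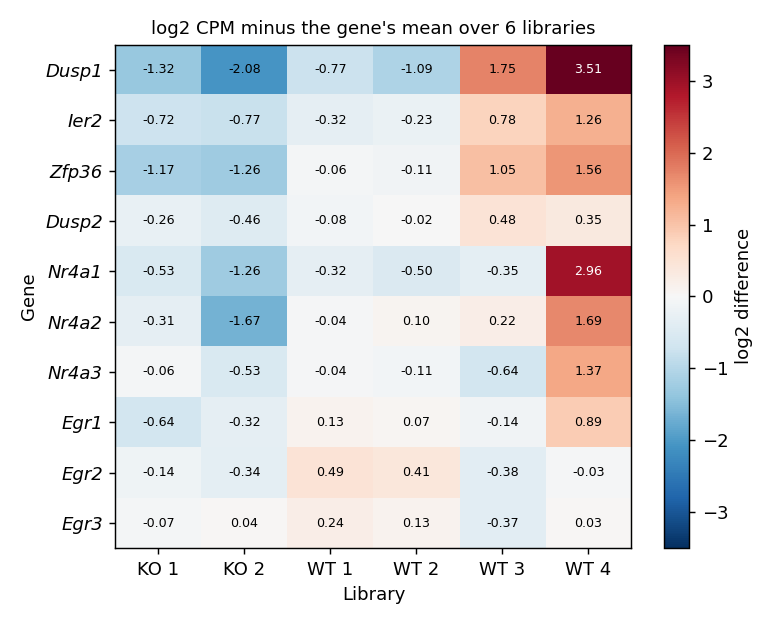
Difference of each library's log2 CPM from the gene's mean over 6 libraries, KO libraries on the left, red above and blue below the mean. WT 4 is above the mean by 3.51 for Dusp1 and 2.96 for Nr4a1, WT 3 by 1.75 for Dusp1 but below it by 0.35 for Nr4a1, and both KO libraries are below the mean for every gene except Egr3 in KO 2.

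Sex as labelled was in the same fit as a term of its own. By edgeR's quasi-likelihood test of the sex term, no member had an adjusted p under 0.05, none had an unadjusted p under 0.05 (6.34% of all tested genes did), and no tested gene was called. The closest was Egr1, with an unadjusted p of 0.0574 and a log2 difference of -0.46 (male minus female). The genotype by sex interaction, with 1 KO library of each sex, called no tested gene at an adjusted p under 0.05 by edgeR. At an unadjusted p under 0.05 it held Nr4a2 (0.0307) among the members and 10% of all tested genes.

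Levels between genes were compared as CPM per kilobase of the deposited gene length. By the median over WT libraries, Dusp2 came first with 237, then Ier2 with 179, Zfp36 with 145, Egr1 with 31.5, Dusp1 with 30.5, Nr4a1 with 23.4, Egr3 with 19.7, Nr4a3 with 19.4, Egr2 with 15.0 and Nr4a2 with 8.80. Neighbours in this order overlapped in their WT ranges, except that every WT value of Zfp36 (88.7 to 282) lay above those of Egr1 (26.7 to 54.4). In KO libraries Dusp2 (176 and 153) and Ier2 (84.6 and 81.5) also led, followed by Zfp36 (42.8 and 40.1). Dusp1, with 6.15 and 3.61, stood at the bottom beside Nr4a2, with 6.35 and 2.46.

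The genes whose levels over the 6 libraries followed the members' median pattern most closely were Rgs16, Hexim1, Ddit3, Gem and Nfil3. Likeness was the root mean square difference of centred log2 CPM, from 0.11 for Rgs16 to 0.17 for Nfil3 among 9184 candidate genes. The members themselves lay further from their median pattern, from 0.27 for Egr1 to 1.42 for Dusp1. Rgs16, a regulator of G protein signalling, had 13.04 and 12.3 CPM in KO 1 and KO 2, against 20.1, 20.1, 19.4 and 44.2 CPM in WT 1 to WT 4. Ddit3, which encodes the stress factor CHOP, had 13.9 and 10.7 CPM in KO 1 and KO 2, against 16.3, 19.8, 22.9 and 46.1 CPM in WT 1 to WT 4. None of the 5 passed the KO against WT test (adjusted p 0.100 to 0.324).

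Other immediate early genes showed the WT pattern as well. Of 44 listed, 41 were tested, and WT 3 and WT 4 were both above WT 1 and WT 2 for 28 of them, against 20.6% of all tested genes. WT 4 was the highest WT library for 38, against 30.7%. In KO, 3 of 41 were lower (Fos, Btg1 and Klf2), a share near the 5.58% of all tested genes, 1 was higher (Errfi1), against 8.13%, and 37 were not called. The median over the 41 was -0.68 on the log2 scale. Fos, an AP-1 subunit gene, had 4.98 and 3.42 CPM in KO 1 and KO 2, against 45.3, 31.8, 315 and 278 CPM in WT 1 to WT 4. It fell by 5.34 on the log2 scale (SE 1.22, adjusted p = 0.0289), or fell by 4.30 without WT 4 (adjusted p = 0.0226) and fell by 3.20 without WT 3 and WT 4 (adjusted p = 0.000213). Its adjusted p was 0.0736 to 0.139 when WT 3, KO 1 or KO 2 was left out, and it was not called by limma voom or the robust option either (0.188 to 0.430). Btg1, an antiproliferative gene, had 846 and 921 CPM in KO 1 and KO 2, against 1411 to 1922 CPM in WT, and fell by 0.84 (SE 0.12, adjusted p = 0.00447). Klf2, a gene for a factor of lymphocyte quiescence and egress, had 383 and 344 CPM in KO 1 and KO 2, against 505 to 608 CPM in WT, and fell by 0.63 (adjusted p = 0.0091, or 0.0732 without KO 2). Errfi1, a feedback inhibitor of EGF receptor signalling, rose to 52.7 and 52.3 CPM, against 20.9 to 34.6 CPM in WT (log2 fold change 1.11, adjusted p = 0.0126), and was not called without WT 3 (0.0513), without KO 1 (0.113) or against WT 3 and WT 4 alone (0.0536).

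Among the transcription factors and kinases upstream of early response genes, the spread across WT libraries was small, with a median SD of 0.11 on the log2 scale. Of 31 tested, 5 were lower in KO (among them Srf, Mrtfa, Mef2c and Rps6ka5), against 5.58% of all tested genes, none was higher, against 8.13%, and 26 were not called. Their median log2 fold change was -0.19. Both KO libraries lay below all WT libraries for 16 of 31, against 18.8% of all tested genes. WT 3 and WT 4 were both above WT 1 and WT 2 for 2 of 31, against 20.6%, and both below them for 16 of 31, against 20%. Srf, the factor that binds CArG boxes, had 113 and 109 CPM in KO 1 and KO 2, against 171, 173, 186 and 165 CPM in WT 1 to WT 4. It fell by 0.64 (SE 0.099, adjusted p = 0.00666) and was called in all 19 alternatives (adjusted p up to 0.0494). Mrtfa, an SRF coactivator gene, fell by 0.47 (adjusted p = 0.0456) and was not called with library-size scaling (0.0766) or when any library but WT 4 was left out (0.103 to 0.268). Mef2c, a gene for a MADS box factor like SRF, had 34.7 and 15.9 CPM in KO 1 and KO 2, against 58.2 to 66.9 CPM in WT. It fell by 1.41 (adjusted p = 0.00978), or by 0.91 without KO 2. Rps6ka5, a gene for a kinase of the pathway, fell by 0.42 (adjusted p = 0.0446). It was not called with library-size scaling (0.0860) or when any single library was left out (0.0522 to 0.238).

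In the KO contrast, relatives of the members differed from them and from each other. Of 11 other DUSP genes, 10 were tested, and 1 was higher in KO, a share near the 8.13% of all tested genes. Dusp16, a phosphatase of JNK, was higher in KO, with 16.3 and 29.6 CPM against 5.46 to 9.16 CPM in WT (log2 fold change 1.59, adjusted p = 0.0119), and was not called without KO 2 (0.118). No call was made for the other 9, and the 10 had a median of 0.10 on the log2 scale. The WT pattern was shared in part: WT 4 was the highest WT library for 8 of the 10, against 30.7% of all tested genes. WT 3 and WT 4 were both above WT 1 and WT 2 for 3, against 20.6%. The median SD of log2 CPM over WT libraries was 0.62, against 0.19 over all tested genes. Of 7 relatives of the EGR and Zfp36 genes, 4 were tested. Zfp36l2, a second AU-rich binding protein gene, had 580 and 743 CPM in KO 1 and KO 2, against 1167, 1004, 1570 and 2176 CPM in WT 1 to WT 4. It fell by 1.17 (SE 0.29, adjusted p = 0.0378) and was not called without WT 1, WT 3, KO 1 or KO 2 (0.0728 to 0.190), with sample weights in limma voom (0.0666) or with the robust option (0.117). Nab1, a corepressor that binds EGR proteins, had 218 and 175 CPM in KO 1 and KO 2, against 251 to 283 CPM in WT. It fell by 0.48 (adjusted p = 0.0254) and was not called when any library but WT 4 was left out (0.0540 to 0.166) or against WT 3 and WT 4 alone (0.131). Over these 4 relatives the median was -0.31 on the log2 scale. WT 4 was the highest WT library for 2 of them, and their median SD over WT libraries was 0.18.

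Heat shock genes, which handling can also induce, moved with the same WT libraries. WT 3 and WT 4 were both above WT 1 and WT 2 for 11 of 13, against 20.6% of all tested genes. Their summed level was 2420 and 2930 CPM in KO 1 and KO 2, against 2580, 2690, 3600 and 5400 CPM in WT 1 to WT 4. The sum of the 10 early response genes was 727 and 644 CPM in KO 1 and KO 2, against 975, 976, 1530 and 2760 CPM in WT 1 to WT 4. Of the 13 heat shock genes, Bag3, a co-chaperone gene, was lower in KO, and 12 were not called. This share is near the 5.58% of all tested genes called lower. Bag3 had 2.84 and 4.87 CPM in KO 1 and KO 2, against 12.9 to 33.5 CPM in WT (log2 fold change -2.27, adjusted p = 0.0109), and was not called without KO 1, without KO 2 or by limma voom (0.0538 to 0.108). The part of tissue handling in these levels was not tested.

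**Figure D5:**
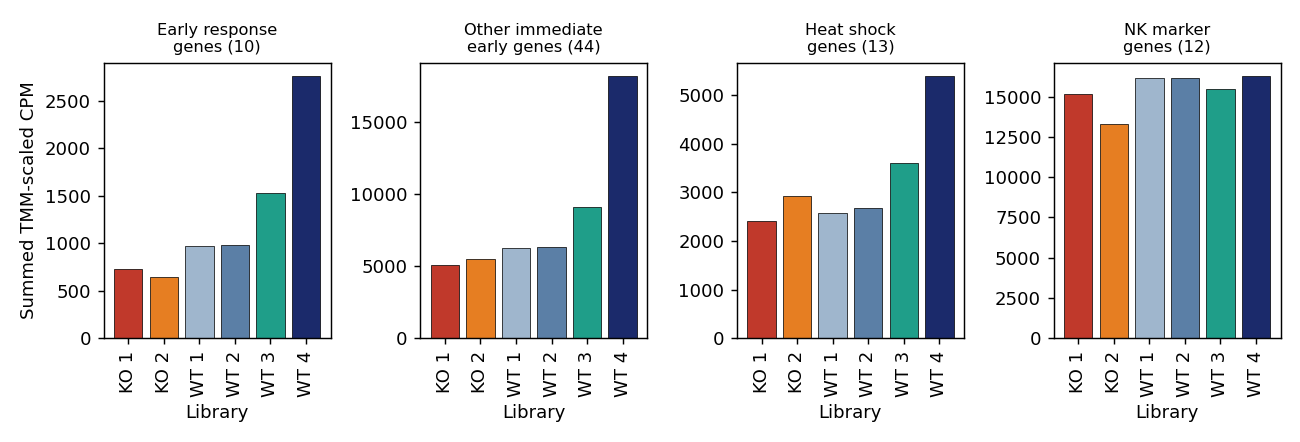
Summed TMM-scaled CPM per library for 4 gene lists, KO libraries on the left. The early response sum is 727 and 644 in KO and 975 to 2760 in WT, and WT 3 and WT 4 are highest for the first 3 lists. NK marker genes sum to 15200 and 13300 in KO and 15500 to 16300 in WT.

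Markers of T, B and stromal cells were among the genes called higher in KO, although the sort was against CD3, TCRbeta and CD8. The summed level of 14 alpha-beta T cell markers was 1740 and 2560 CPM in KO 1 and KO 2, against 396 to 654 CPM in WT. Of the 14, 6 were called higher, and none was at 0 in any library. For this list and those that follow, the share of all tested genes called higher was 8.13%. Trac had 405 and 636 CPM in KO 1 and KO 2, against 16.8 to 39.2 CPM in WT. Cd3d had 110 and 53.5 CPM in KO 1 and KO 2, against 38.3 to 88.6 CPM in WT, and Trbc1 had 96.8 and 70.1 CPM, against 86.0 to 119 CPM, so both overlapped between the groups (adjusted p = 0.698 and 0.357). For 5 gamma-delta T cell markers the sum was 613 and 466 CPM in KO, against 187 to 352 CPM in WT. Of these, 3 were called higher (Sox13, Trgc1 and Trgc2), and none was at 0. Trdc had 283 and 135 CPM in KO 1 and KO 2, against 109 to 207 CPM in WT, so the groups overlapped (adjusted p = 0.510). Trgc4 had 106 and 103 CPM, against 53.4 to 87.2 CPM in WT, and was not called (adjusted p = 0.0537). For 7 B cell markers, a sum made up mostly of Ighm in every library, it was 527 and 455 CPM in KO, against 365 to 419 CPM in WT, with 6 called higher. None was at 0 in KO or in WT 4, while Ms4a1 and Pax5 were at 0 in WT 1 and WT 3. For 10 myeloid markers, mostly Itgam, which NK cells also express, it was 494 and 442 CPM in KO, against 324 to 427 CPM in WT. None of 9 tested was called by edgeR at an adjusted p under 0.05. At an unadjusted p under 0.05 it was 6, against 29.3% of all tested genes in either direction. Cd14 and Fcgr1 were at 0 in WT 1, WT 2 and WT 3. For 9 stromal markers it was 272 and 448 CPM in KO, against 110 to 119 CPM in WT, with 4 of 6 tested called higher. The sum mainly follows Pecam1, which had 245 and 402 CPM in KO 1 and KO 2, against 103 to 113 CPM in WT. Of the others called, Epcam had 21.3 and 34.9 CPM in KO 1 and KO 2. Krt5 and Krt8 had at most 8.47 CPM in any library. Foxn1 and Col3a1 were at 0 in all WT libraries. Cdh5 had at most 2.02 CPM in any library and was not called. Pecam1 stood at 103 to 113 CPM in WT beside these low values, so the sum is no measure of stromal cells alone. Among WT libraries, WT 4 had the highest sum of alpha-beta T cell (654 CPM), B cell (419 CPM) and myeloid markers (427 CPM). The part of these transcripts in the levels of the early response genes was not tested.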

How the data were processed

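RNA was measured in 6 libraries of sorted thymic NK cells, with SMART-Seq v4 chemistry, which does not mark strand, named in the labels' protocols. The deposited values are the authors' raw counts per Entrez gene, made with featureCounts on mm10 per the submitters' processing notes. No aligner or version is named in the sources used here. Reads were amplified and carry no molecular identifiers, so the floor of 3 counts covers counting error only. The table held 0 columns of other samples, and the 6 single-sample files held identical counts. Symbols came from RefSeq for GRCm38.p6, the same build as mm10 (25275 of 26332 IDs matched).

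Counts were fitted with edgeR 4.0.16 (R 4.3.3): TMM, filterByExpr, glmQLFit and glmQLFTest, with labelled sex as a covariate, and Benjamini-Hochberg adjustment over 13652 genes. Genes were called at an adjusted p under 0.05. SE is the log2 fold change divided by the square root of F. Log2 CPM used a prior count of 2. Counts of every pair of same-group libraries differed beyond sampling noise (chi-square over its degrees of freedom, 8.86 to 62.2), so none were merged. The fit was tested on simulated counts.

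Alternatives were other scalings and filters, no sex term, a replicate block, DESeq2 1.42.0, limma 3.58.1 voom (also with sample weights), the robust option of the quasi-likelihood fit, and libraries left out. The members, lists and alternatives were chosen with earlier results of these data known. Text names all members, up to 3 called genes per list by size of change, Klf2 and Rps6ka5 (chosen after their values were seen), and the 5 genes nearest the members' median pattern. Some list genes are not reported here.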

Additional observations from a re-analysis of the deposited data

Results flagged for a closer look

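In the group of 4 WT libraries, WT 4 lay far from the other 3 for the NR4A genes. It had 566.9 CPM for Nr4a1, 85.22 CPM for Nr4a2 and 99.72 CPM for Nr4a3, against at most 58.7, 30.8 and 37.4 CPM in the other WT libraries. The gap to the nearest library took up 0.986, 0.914 and 0.830 of the whole range, above Dixon's 95% critical value for 4 samples, for Nr4a3 by a narrow margin. On log2 CPM, a scale tried after the values were seen, these were 0.946, 0.848 and 0.701, and that of Nr4a3 was below the critical value. The 10 genes were examined in this way, and chance marks about 1 group in 20. No other member had such a library, on either side of the range.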

How the results depend on the processing

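Over 19 alternatives, 8 of 10 members kept a log2 fold change below 0. Egr3 was 0.042 with library-size scaling, 0.15 with WT 1 and WT 2 left out together, and -0.16 to 0.10 with 1 library left out. Nr4a3 was -1.35 to 0.23 with 1 library left out. The number of members called (1) was 6 without an expression filter, 3 with DESeq2, 0 with sample weights in limma voom, 0 with the robust option, 2 with WT 3 and WT 4 left out together, 4 with WT 1 and WT 2 left out together, and 0 to 3 with 1 library left out. The number with an unadjusted p under 0.05 (5) was 8 without WT 3 and WT 4, 2 with the robust option, and 1 to 7 with 1 library left out. Over all genes, calls (1872) numbered 2955 with DESeq2, 838 without WT 1 and WT 2, and 934 to 1908 with 1 library left out. The cause of these differences was not tested, beyond the fewer libraries in some fits. Setting WT 3 and WT 4 apart from WT 1 and WT 2 splits WT along the levels of several members. Counts and p-values of members from those fits are therefore no independent support. With the replicate number as a block, 3 members (Egr2, Dusp1 and Zfp36) were called and 8 had an unadjusted p under 0.05. Deviations from the group means correlated at 0.132 for number 1 and -0.0478 for number 2. With 2 KO libraries their deviations mirror each other, so this cannot decide whether the shared numbers mark pairs. WT 3 and WT 4 have no KO partner, so the fold changes of the block fit rest on WT 1 and WT 2. Those of Zfp36, Dusp1 and Egr2 were -1.12, -0.78 and -0.69, as in the fit without WT 3 and WT 4. Counts of members from the block fit are therefore no independent support either. Where 1 KO library was left out, the spread of the single one that remained was taken from WT. Levels under 0.0963 to 0.183 CPM, 3 counts of a library, lay below the level taken as a floor.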
